A study of Mus musculus with 22 samples.

Results

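The genes followed here were Cd5, Cd6, Cd69, Nr4a1, Nr4a2, Nr4a3, Egr1, Egr2 and Egr3, which encode inhibitory or activation-induced surface receptors and transcription factors that are switched on by antigen receptor signals. They were selected by symbol and make up 9 of the 41814 gene symbols listed in the 3 deposited tables, each of which holds a row for all 9. RNA was taken from sorted bone marrow B cell precursors of adult tet-LIN28B mice, which carry 1 copy of a Flag-tagged human Lin28b cDNA under a doxycycline-driven promoter at the Col1a locus (Col1a tetO-LIN28B) together with the Rosa26 rtTA*m2 transactivator, and from littermate controls that were heterozygous for Rosa26 rtTA*m2 alone. Mice of both genotypes ate doxycycline chow (200 mg/kg) over 10 days, so the transactivator and the drug were shared by all groups and the transgene was not restricted to B cells. Large Pro-B cells gave 4 control and 5 tet-LIN28B libraries, large Pre-B cells gave 3 and 4, and small Pre-B cells gave 3 of each genotype. These 22 libraries came from 15 mice, of which 7 gave both large stages, and the small Pre-B mice gave no other stage. The comparison addressed in each stage was whether these receptor-induced genes differed between tet-LIN28B and control cells.

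CD5 is a scavenger-receptor family glycoprotein of T cells and of B-1a cells, a self-reactive B cell subset produced mainly in fetal and neonatal life. It sits next to the antigen receptor and dampens its signal, and its level is known to follow the strength of that signal during lymphocyte development. NR4A nuclear receptors, EGR zinc-finger factors and the lectin CD69 are transcribed within minutes to hours of receptor engagement and are therefore read as reporters of it. Pro-B cells lack such a receptor, a pre-B form of it appears on large Pre-B cells, and it is mostly gone again while small Pre-B cells rearrange a light chain. LIN28B, an RNA-binding protein of fetal progenitors, keeps let-7 precursors from maturing and binds many mRNAs as well.

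Cd5 lies on mouse chromosome 19 from 10717116 to 10739002 on the minus strand of GRCm38, the build named mm10 in the study, and its relative Cd6 lies on the same strand from 10789341 to 10830058. Cd69 is on chromosome 6 from 129267325 to 129275436, Nr4a1 on chromosome 15 from 101254269 to 101274795, Nr4a2 on chromosome 2 from 57106830 to 57124003 and Nr4a3 on chromosome 4 from 48045153 to 48086447. Egr2 is on chromosome 10 from 67535475 to 67542188 and Egr3 on chromosome 14 from 70077203 to 70082614. In GENCODE M21 none of the 9 overlaps another gene. Runs of 50 bases shared with transcripts of other genes were found for Cd69 (0.0916% of its runs) and Nr4a3 (0.0501%), and for none of the other 7, so the related Nr4a and Egr genes share no stretch of that length with one another.

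Because LIN28B acts on let-7, the let-7 seed is shown with the only match to it among the 9 genes. The mature mouse let-7 microRNAs named let-7a to let-7i in the RefSeq table (GRCm38.p6) (8 in all) share bases 2 to 8, in capitals in the pair printed here.
mmu-let-7a-5p: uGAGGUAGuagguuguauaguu
mmu-let-7g-5p: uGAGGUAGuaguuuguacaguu
The complement of that seed was searched in the longest annotated 3′ UTR of each gene. Egr3 held 1 match, at position 1511 of a UTR of 2645 bases (chr14:70081405-70081433, plus strand), with the match in capitals.
Egr3: acctccctgccCTACCTCacctcttctca
Cd5 (UTR of 1483 bases), Cd6, Cd69, Nr4a1, Nr4a2, Nr4a3, Egr1 and Egr2 held none. Of 21020 protein-coding genes with a UTR, 9.03% held at least 1 match. The median UTR of these 21020 genes was 961 bases, against 2645 for Egr3. A match of these letters is a description and was not tested as a site of let-7 action.

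Promoters of Cd5, Nr4a1, Nr4a2, Nr4a3 and Egr2 were read from the RefSeq table. The 250 bases before the Cd5 start site are shown because Cd5 carried the largest genotype difference among the 8 of these genes tested in small Pre-B cells. Its 2 E-boxes, the letters CANNTG bound by E proteins and read on either strand, are in capitals and begin 174 and 69 bases before the start site.
Cd5 (chr19:10738975-10739224, minus strand): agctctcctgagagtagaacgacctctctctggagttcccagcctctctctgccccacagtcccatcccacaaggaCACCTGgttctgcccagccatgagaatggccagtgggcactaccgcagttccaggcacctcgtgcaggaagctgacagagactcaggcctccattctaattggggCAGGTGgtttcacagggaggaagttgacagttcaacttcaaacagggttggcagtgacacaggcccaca
Among 32851 promoter windows of 300 bases, 72.3% held an E-box. The Cd5 window held no CArG box, the element that binds serum response factor in many immediate early genes (1.63% of promoters), no cyclic AMP response element TGACGTCA (1.79%), no EGR site GCGTGGGCG (0.612%) and no NR4A site AAAGGTCA (1.51%). The windows of Nr4a1, Nr4a2 and Nr4a3 held no exact match to these 4 elements either. Each element was matched letter for letter, with only A or T inside the CArG box, and near matches were not searched for. Egr2 has 5 start-site windows in the table, of which 4 held a CArG box and 1 held none. The box printed in capitals here lay in 3 of the windows, beginning 72, 73 or 133 bases before their start sites, and another window held a different one.
Egr2 (chr10:67537772-67537831, plus strand): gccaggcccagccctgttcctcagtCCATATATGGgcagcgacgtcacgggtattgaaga

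Libraries of large Pro-B cells held 13.9 to 23.3 M counted reads, those of large Pre-B cells 19.9 to 30.4 M and the small Pre-B libraries 32.005 to 51.0 M. The values are normalized counts, that is reads divided by the library's size factor, and 3 reads of a gene were worth 1.73 to 3.76 normalized counts. Reads named Lin28b were low in all 10 control libraries, with a highest value of 28.8, and higher in all 12 tet-LIN28B libraries, with a lowest value of 41.9, and they were at 0 in the 3 small Pre-B controls. Lyz2, a myeloid gene, was at 50.3, 4911 and 763 in large Pre-B control replicates 1 to 3 against 10.7 to 33.7 in the tet-LIN28B libraries of that stage, so all 3 controls were above them, and its part in the large Pre-B values was not tested. In bulk RNA, fewer cells of a type and less RNA per cell cannot be told apart.

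In small Pre-B cells Cd5 and Egr3 rose in tet-LIN28B mice, and the other 6 genes tested did not pass. Cd5 was about 12.6 times as abundant by group means and Egr3 2.48 times. Cd69, Egr1 and Nr4a1, the 3 reporters with the highest levels, differed by 0.20 or less on the log2 scale. Genes were tested with limma on log2(normalized count + 1) if 10 normalized counts were reached in no fewer libraries than the smaller group has. A call needed a p under 0.05 after Benjamini-Hochberg adjustment over all genes tested. Of the 8 genes tested, 2 were called higher and 0 lower, beside 7.34% of all 14664 genes called higher and 7.03% called lower in this stage. The median log2 fold change of the 8 was 0.18 beside 0.00 over all genes, a description only, since Cd5 entered the test through the group in which it was high.

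Cd5 stood at 0, 5.41 and 1.88 normalized counts in small Pre-B control replicates 1 to 3 and at 16.2, 38.4 and 37.1 in tet-LIN28B replicates 1 to 3. All 3 tet-LIN28B libraries were above all 3 control libraries, as were those of 17.7% of all genes tested, while 16.2% of genes had the 3 below. The means were 2.43 ± 2.74 (SD, n = 3) and 30.6 ± 12.5 (SD, n = 3), which gave a log2 fold change of 3.48 ± 0.76 (SE) and a limma adjusted p of 0.0143. In reads the control libraries held 0, 5 and 2 and the tet-LIN28B libraries 23, 37 and 41, so the transcript was scarce in both genotypes, and Cd5 reached the filter only through the tet-LIN28B libraries. The fold change was 3.63 with edgeR's quasi-likelihood test (adjusted p = 0.0142) and 3.69 with DESeq2 (adjusted p = 0.000654) on the recovered reads. Without tet-LIN28B replicate 2 the limma adjusted p was 0.0523, or 0.0467 with the tested genes held fixed, and over the 6 fits that left out 1 library each the log2 fold change ran from 2.78 to 4.12.

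Egr3, a zinc-finger factor induced downstream of the antigen receptor together with Egr2, read 22.3, 28.1 and 41.3 normalized counts in control replicates 1 to 3 of small Pre-B cells. In the tet-LIN28B replicates it read 95.7, 47.7 and 84.2. The lowest tet-LIN28B library stood only slightly above the highest control library, so the groups did not overlap but came close. Means were 30.6 ± 9.74 (SD, n = 3) and 75.9 ± 25.1 (SD, n = 3), with a log2 fold change of 1.27 ± 0.37 (SE) and a limma adjusted p of 0.0453. This call lay at the threshold. It was lost without the filter on low values (adjusted p = 0.0800), with libraries rescaled to the same total (0.0520), with the replicate number as a block (0.0552) and in each fit that left out 1 library other than tet-LIN28B replicate 2, where limma adjusted p values ran from 0.0527 to 0.159. With edgeR and DESeq2 the adjusted p was 0.0445 and 0.0158.

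**Figure D1:**
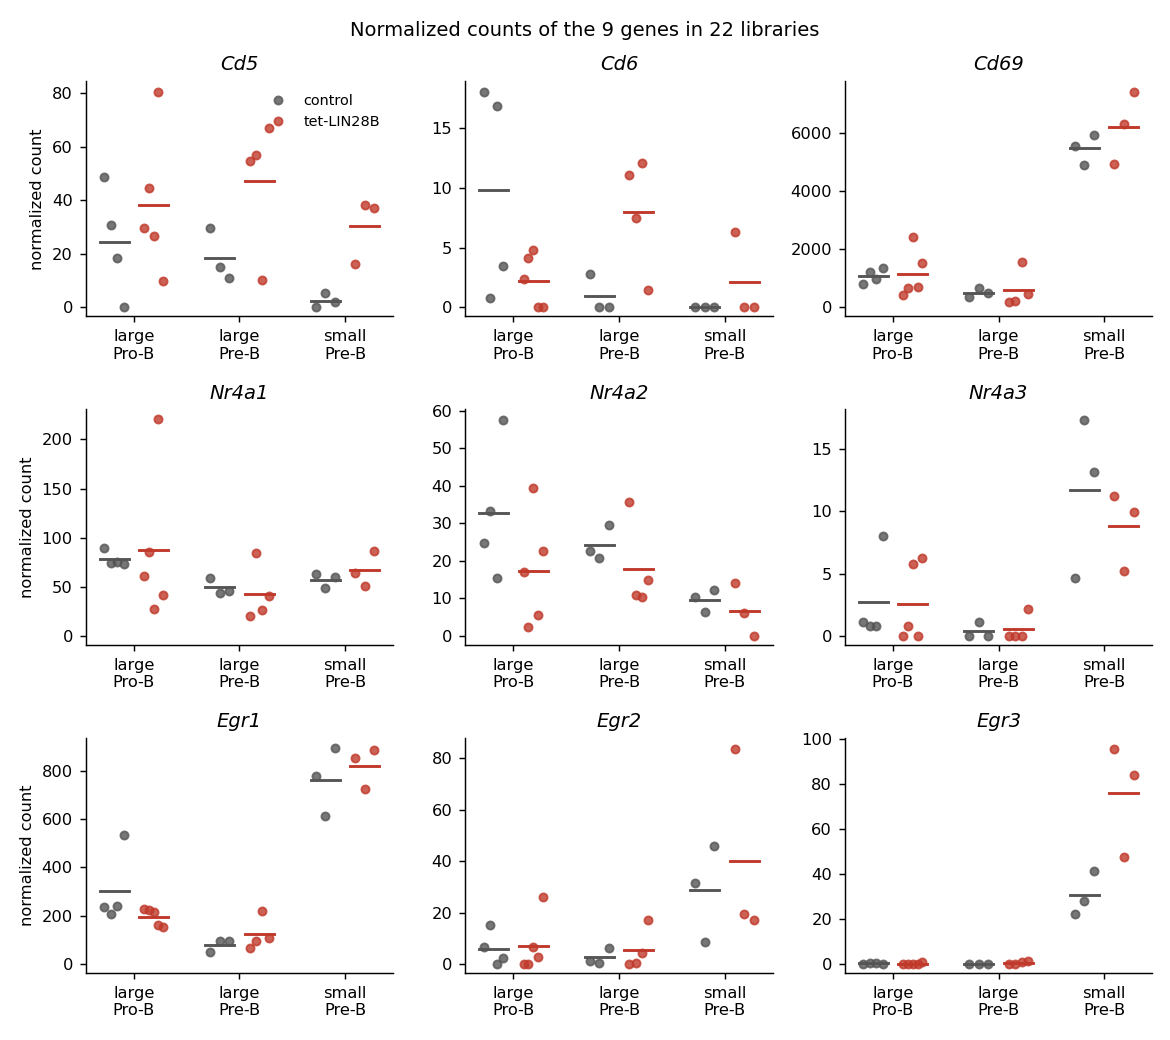
Normalized counts of the 9 genes in the 22 libraries by stage, with control libraries in grey, tet-LIN28B libraries in red and the mean of each group as a bar. Each panel has its own linear axis from 0. In small Pre-B cells the 3 tet-LIN28B libraries of Cd5 (16.2 to 38.4) and of Egr3 (47.7 to 95.7) lie above the 3 controls, whereas the points of the other 7 genes overlap.

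Egr2 and Egr1, the other members of the EGR family measured, gave overlapping groups in small Pre-B cells. Egr2 read 31.6, 8.65 and 46.0 in controls and 83.8, 19.7 and 17.2 in tet-LIN28B libraries, so that 1 tet-LIN28B library was the highest and the other 2 lay within the control range (log2 fold change 0.37 ± 0.71 SE, limma adjusted p = 0.775). Egr1, an early transcription factor induced through the MAP kinase cascade, read 776, 613 and 892 in controls and 853, 723 and 883 in tet-LIN28B libraries (0.12 ± 0.15, adjusted p = 0.637). The 3 EGR genes thus gave 1 call and 2 values within the spread between libraries.

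Nr4a1, Nr4a2 and Nr4a3 encode orphan nuclear receptors, and Nr4a1 (Nur77) is widely used as a reporter of antigen receptor signal strength in lymphocytes. Nr4a1 read 63.3, 48.7 and 60.1 normalized counts in small Pre-B controls and 64.1, 50.8 and 86.0 in tet-LIN28B libraries, a log2 fold change of 0.20 ± 0.29 (SE) with a limma adjusted p of 0.701. The groups overlapped. Nr4a2 read 10.2, 6.49 and 12.2 against 14.1, 6.22 and 0 (fold change -1.12 ± 0.95 on the log2 scale, adjusted p = 0.482), the size of which rested on the library at 0. Nr4a3 read 4.65, 17.3 and 13.2 against 11.3, 5.19 and 9.96 (-0.27 ± 0.63, adjusted p = 0.819). None of the 3 NR4A genes passed in either direction.

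Cd69, a C-type lectin that appears on lymphocytes soon after activation and retains them in tissue, was the most abundant of the 9 genes. It read 5564, 4908 and 5949.5 normalized counts in small Pre-B controls and 4928, 6309 and 7433 in tet-LIN28B libraries, and the groups overlapped (log2 fold change 0.17 ± 0.13 SE, limma adjusted p = 0.440). Cd6, a receptor related to CD5 that binds the adhesion molecule ALCAM, held 0 reads in all 3 small Pre-B controls and in 2 tet-LIN28B libraries and 9 reads (6.34 normalized counts) in tet-LIN28B replicate 1. Cd6 did not reach the filter in any stage and was not tested in the main analysis. Without the filter its limma adjusted p was 0.973 in large Pro-B, 0.870 in large Pre-B and 0.543 in small Pre-B cells.

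Markers of other cells were read beside these values, since T cells express Cd5 and Cd6 and maturing B cells express receptor-induced genes. Cd3e, which defines T cells, was at 0 in all 6 small Pre-B libraries, as were Trbc1 and Cd28. Other T cell genes held a few counts, with Cd3g at 0 in the 3 controls and at 1.41, 2.07 and 0.905 in the tet-LIN28B libraries, Trac at 0.939 to 5.58 against 3.11 to 5.63 and Cd3d at 1.88 to 3.72 against 0 to 8.15. Their part in the Cd5 values was not tested. The whole T cell list summed to 9991 to 10675 normalized counts in controls and 11933 to 12597 in tet-LIN28B libraries, with Cd2, which maturing B cells also express, at 9297 to 9696 and 11027 to 11537 of it. Of the 6 T cell genes tested, 1 was higher (Cd2, log2 fold change 0.25) and 1 lower (Tcf7, -2.85). The immature and mature B cell list moved with genotype, with 7 of 9 genes higher and 1 lower, and its sum was 563408 to 590791 in controls and 708508 to 768034 in tet-LIN28B libraries. Fcer2a (CD23) was at 31.9 to 34.4 against 214.7 to 280.2, whereas Ighd, the defining gene of that list, was at 4708 to 5267 against 4915 to 5245 (log2 fold change -0.01, limma adjusted p = 0.969). Among lists of other cell types, NK cells gave 1 gene higher (Prf1, at 16.2 to 58.6 against 112 to 199, with the defining gene Ncr1 at 0 to 5.41 against 0) and erythroid cells gave 2 (Hba-a2 and Hbb-bs). Of 6 plasma cell genes 2 were higher and 3 lower, among them Mzb1 at 8396 to 9598 against 17295 to 19205 and the defining gene Sdc1 at 5679 to 7054 against 1914 to 2134. Of 5 plasmacytoid dendritic cell genes tested 3 were higher and 1 lower, with sums of 109056 to 117282 against 136882 to 157697 and the defining gene Siglech at 0 to 4.65 against 0. Myeloid genes gave none of 5 tested in either direction, with sums of 385 to 2011 against 441 to 501. Of 12 B cell precursor genes 0 were higher and 3 lower, with sums of 307780 to 318766 against 300434 to 321861. Sorting removed IgM+ cells, and the part of more mature or other cells in the Cd5 and Egr3 values was not tested.

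**Figure D2:**
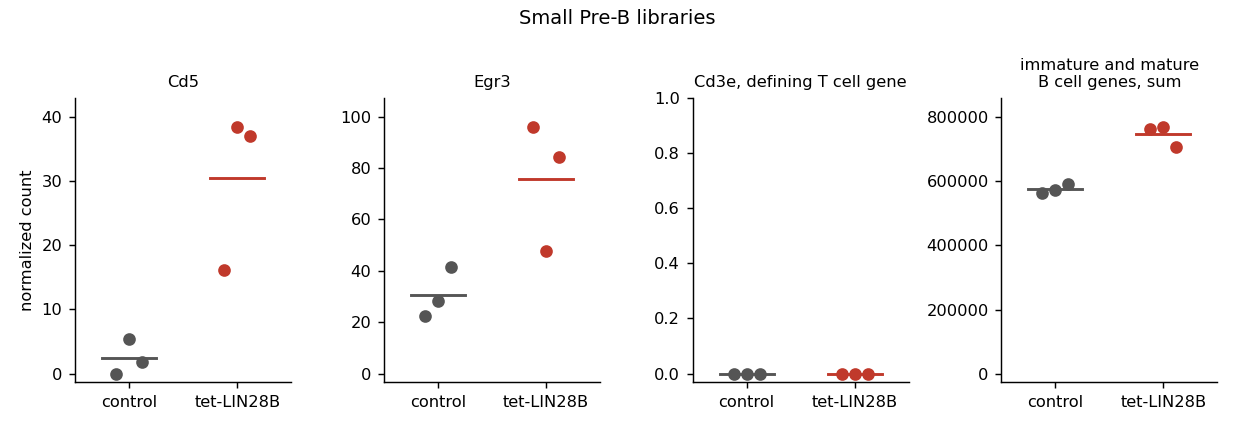
Normalized counts of Cd5, Egr3 and Cd3e and the summed normalized count of the immature and mature B cell list in the 3 control (grey) and 3 tet-LIN28B (red) small Pre-B libraries, with group means as bars. Cd3e is at 0 in all 6 libraries, and the mature B cell sum is higher in each tet-LIN28B library, as are Cd5 and Egr3.

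In large Pre-B cells none of the 9 genes passed. Among the 5 tested Cd5 had the largest difference, with a mean of 18.5 ± 9.92 (SD, n = 3) normalized counts in controls and 47.2 ± 25.1 (SD, n = 4) in tet-LIN28B cells. These 5 genes (Cd5, Cd69, Nr4a1, Nr4a2 and Egr1) gave 0 calls in either direction with limma, edgeR and DESeq2, and 0 at an unadjusted limma p under 0.05. Over all 14155 genes 0.0424% were called higher and 0.0141% lower, and in none of the 5 did the libraries separate, as they did for 3.59% of all genes with tet-LIN28B above and 2.87% with tet-LIN28B below. Their median log2 fold change was -0.27 beside -0.02 over all genes.

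Cd5 read 29.7, 15.0 and 10.9 normalized counts in large Pre-B control replicates 1 to 3 and 54.5, 57.0, 10.4 and 66.8 in tet-LIN28B replicates 1 to 4. Of the tet-LIN28B libraries, 3 of 4 stood above every control, and replicate 3 lay below them all. The log2 fold change was 1.14 ± 0.67 (SE) with a limma adjusted p of 0.754. Leaving out control replicate 2 or 3, the libraries with the highest Lyz2 values, gave 1.05 and 0.84, and leaving out tet-LIN28B replicate 3 gave 1.74 (adjusted p = 0.486). Tet-LIN28B replicate 3 also stood apart for the reporters, with the highest Cd69 value of the stage at 1576 against 179 to 469.8 in the other 3 tet-LIN28B libraries and 351 to 685 in controls. The same library held the highest Egr1 value, 220.1 against 69.6 to 109 and 51.0 to 95.0.

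The large Pre-B fold changes of the other tested genes were small beside their errors. Nr4a1 ran from 43.8 to 58.8 normalized counts in controls and from 19.8 to 84.6 in tet-LIN28B libraries (log2 fold change -0.41 ± 0.52 SE, limma adjusted p = 0.875). Nr4a2 ran from 20.7 to 29.5 and from 10.4 to 35.6 (-0.58 ± 0.63, adjusted p = 0.857). For Cd69 the difference was -0.27 ± 0.56 (adjusted p = 0.923) and for Egr1 0.54 ± 0.42 (adjusted p = 0.791), and in each the tet-LIN28B range enclosed or overlapped that of the controls. Of the 4 genes below the filter, Nr4a3 and Egr3 were nearly silent and did not pass 2.13 normalized counts in any library. Egr2 reached 17.1 in 1 library. Cd6 read 2.83, 0 and 0 in controls and 11.1, 7.48, 12.1 and 1.42 in tet-LIN28B libraries.

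In large Pro-B cells, which carry no B cell receptor, none of the 5 genes tested passed either, and no gene of the 13776 tested was called (0% higher and 0% lower with limma and 0 genes with edgeR, 4 genes with DESeq2), although 394 had an unadjusted limma p under 0.05. None of the 5 had such a p, and none separated the groups, beside 0.697% of all genes with every tet-LIN28B library above and 0.602% with every one below. The median log2 fold change of the 5 was -0.21 beside 0.02 over all genes. Cd5 read 48.6, 30.9, 18.5 and 0 normalized counts in control replicates 1 to 4 and 29.6, 44.5, 26.9, 80.5 and 10.0 in tet-LIN28B replicates 1 to 5. Apart from the control at 0 and the tet-LIN28B library at 80.5 the values intermingled, and the log2 fold change of 1.284 ± 1.08 (SE, limma adjusted p = 0.999) became 0.04 without control replicate 4.

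Egr1 in large Pro-B cells read 237, 206, 239.9 and 532 in controls and 227, 222, 216, 164 and 154 in tet-LIN28B libraries, so that 2 tet-LIN28B libraries stood below every control and the other 3 among the lower ones (log2 fold change -0.53 ± 0.34 SE, limma adjusted p = 0.999). Nr4a2 was at 32.7 ± 18.04 (SD, n = 4) and 17.4 ± 14.8 (SD, n = 5) normalized counts, and its difference of -1.21 ± 0.81 on the log2 scale did not pass. Nr4a1 was even in controls, at 73.6 to 89.2, and scattered in tet-LIN28B libraries, from 27.8 in replicate 3 to 220.5 in replicate 4 (-0.21 ± 0.56). Cd69 ran from 821 to 1346 in controls and from 414 to 2413 in tet-LIN28B libraries (-0.20 ± 0.45). The 2413 was in replicate 3, from the mouse that also gave tet-LIN28B replicate 3 of large Pre-B cells. Cd6, Nr4a3, Egr2 and Egr3 were below the filter, with highest values of 18.1, 8.05, 26.3 and 1.25. Cd3e was at 0 to 28.7 in these controls and 0.823 to 19.2 in the tet-LIN28B libraries, and its part in the Cd5 values was not tested. The highest Cd3e value was in control replicate 4, where Cd5 was at 0. Trac ran the other way, at 0 in that library and highest, at 53.1, in tet-LIN28B replicate 4, where Cd5 was highest.

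**Figure D3:**
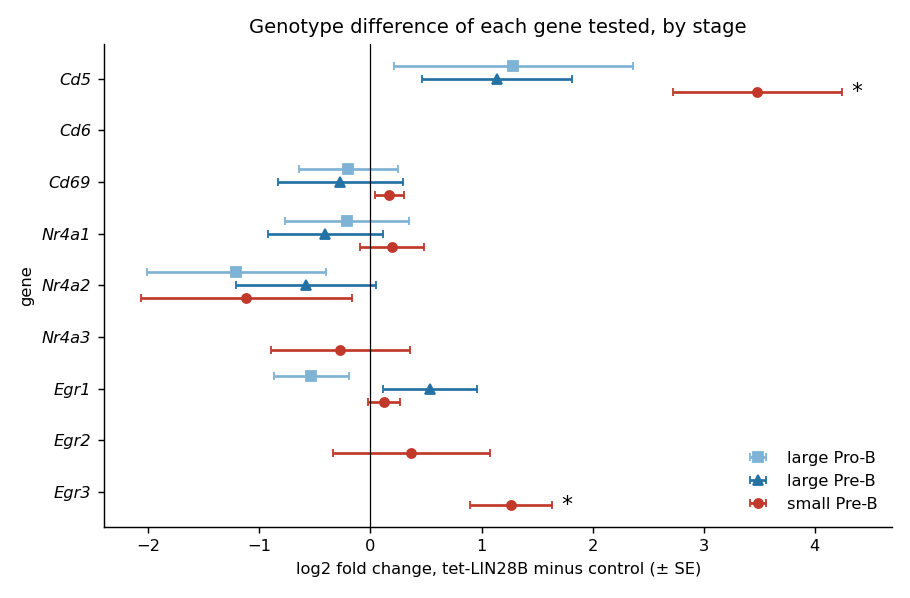
Log2 fold change of tet-LIN28B over control (horizontal axis, with its SE as a bar) for each gene that was tested, by stage, where an asterisk marks an adjusted p under 0.05. Cd5 lies above 0 in all 3 stages and passes in small Pre-B cells at 3.48. Egr3 passes at 1.27, and Cd6 has no point because it did not reach the filter.

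A larger genotype effect in small Pre-B cells was tested directly for the 5 genes that passed the filter in all stages, in a limma model of the 6 groups over 11830 genes with the mouse as a random block. The Cd5 effect exceeded that in large Pro-B cells by 2.20 ± 1.43 (SE) on the log2 scale (limma adjusted p = 0.992) and that in large Pre-B cells by 2.10 ± 1.505 (adjusted p = 0.999), so a difference between stages was not shown. Of all genes 0.0338% were called for the former contrast and 0.0169% for the latter. Between large Pre-B and large Pro-B cells 0% of genes were called, and the largest difference among the 5 was that of Egr1, 0.96 ± 0.43 (limma adjusted p = 1.00). Egr3 could not be compared, because it was not tested in the large stages.

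Across the stages the reporters did not move together. Levels were set side by side as RPM, a gene's reads per M counted reads of its library, since the tables were normalized separately, and no test was made between stages, which for small Pre-B cells came from other mice. In controls Cd69 went from 60.8 ± 12.8 (SD, n = 4) in large Pro-B to 33.1 ± 11.3 (SD, n = 3) in large Pre-B and then to 158 ± 15.0 (SD, n = 3) in the small stage, with no overlap between the libraries of neighbouring levels. Egr1 followed the same course, 16.9 ± 8.36, 5.27 ± 2.06 and 21.9 ± 4.02 RPM, although its large Pro-B and small Pre-B controls overlapped. Egr3 was nearly absent from both large stages (0.0215 and 0 RPM) and present in small Pre-B controls at 0.883 ± 0.280, with no overlap. The Egr2 and Nr4a3 control means were also highest in small Pre-B cells, at 0.830 ± 0.543 and 0.338 ± 0.186, though their libraries overlapped those of large Pro-B cells.

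Cd5, Nr4a1 and Nr4a2 ran the other way. In controls Cd5 was at 1.37 ± 1.14 RPM in large Pro-B, 1.15 ± 0.505 in large Pre-B and 0.0701 ± 0.0793 in small Pre-B cells, and the libraries of the last did not overlap those of large Pre-B cells. In tet-LIN28B cells the small Pre-B mean was 0.862 ± 0.356, still below the 2.06 ± 1.26 and 2.84 ± 1.56 of the large stages, from which it did not separate. Thus the highest small Pre-B values of Cd5 were within the range that Cd5 had in large Pro-B cells of either genotype. Nr4a1 controls fell in order without overlap, from 4.35 ± 0.418 through 3.17 ± 0.401 to 1.65 ± 0.220, and Nr4a2 controls were at 1.82 ± 0.989, 1.59 ± 0.498 and 0.278 ± 0.0836.

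Per kilobase of exon, so that genes could be set against each other, Cd69 was the most abundant in small Pre-B controls at 24.3 ± 2.30 RPKM (reads per kilobase per M counted reads). Egr1 was next at 4.89 ± 0.897, followed by Nr4a1 at 0.472 ± 0.0628. Egr2 (0.244 ± 0.160) and Egr3 (0.200 ± 0.0636) did not differ beyond their spread, nor did Nr4a2 (0.0685 ± 0.0206) and Nr4a3 (0.0564 ± 0.0311). Cd5 stood at 0.0142 ± 0.0161 and Cd6 at 0. In tet-LIN28B cells Cd5 reached 0.175 ± 0.0722 and Egr3 0.485 ± 0.160, the latter near Nr4a1 at 0.538 ± 0.150.

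**Figure D4:**
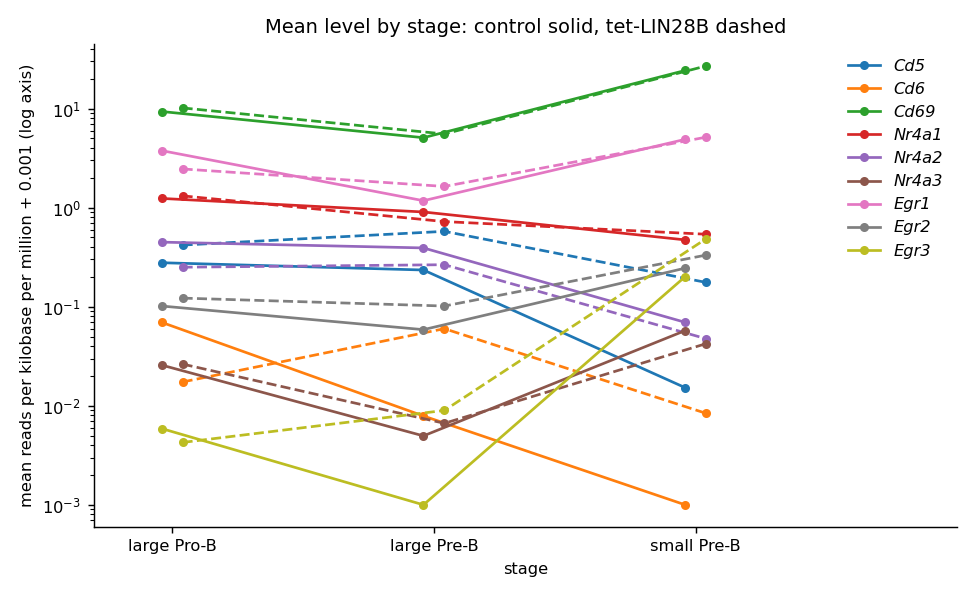
Mean RPKM, plus 0.001, on a log axis for each gene in the 3 stages in order of development, with control means joined by solid and tet-LIN28B means by dashed lines. No error is drawn, and the SDs are those in the text. Cd69 and Egr1 are lowest in large Pre-B and highest in small Pre-B cells, Egr3 appears in small Pre-B cells, and the small Pre-B control mean of Cd5 (0.0142) lies below its tet-LIN28B mean (0.175).

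Other genes known to respond to the B cell receptor were read as a list of 42, of which 35 were tested in small Pre-B cells. Of these 9 rose, 2 fell and 24 did not pass, beside 7.34% of all genes called higher and 7.03% called lower, with a median log2 fold change of 0.13 beside 0.00 over all genes. Id3, an inhibitor of E proteins that EGR factors induce, went from 2728 ± 74.4 (SD, n = 3) to 8141 ± 691 (SD, n = 3) normalized counts (log2 fold change 1.57 ± 0.07 SE, limma adjusted p = 6.69e-06). Myc, which drives growth and is induced by receptor and cytokine signals, went from 51.1 ± 22.2 to 408 ± 82.1 (3.03 ± 0.29, adjusted p = 0.000231), and the chemokine receptor Ccr7 from 8054 ± 279 to 12973 ± 833. Il2ra (CD25), which also marks Pre-B cells that have signalled through the pre-B cell receptor, fell by 1.13 on the log2 scale, from 10557 ± 348 to 4823 ± 386. In the large stages 0 of 32 genes of the list passed.

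Immediate early genes that are also induced when tissue is dissociated and sorted gave 0 higher and 1 lower of 23 tested in small Pre-B cells. The 1 was Btg2, an antiproliferative gene, which fell by 0.22 on the log2 scale (56965 ± 2039 to 48828 ± 1499.7, limma adjusted p = 0.0299). That call was lost without the filter, with the replicate block, and without tet-LIN28B replicate 1 or any of the 3 control replicates (adjusted p = 0.0527 to 0.110). The list's median was -0.19 beside 0.00 over all genes, and of the 23 genes 5 had a positive fold change. In large Pro-B and large Pre-B cells 0 of 24 and 0 of 25 passed.

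A general list of inhibitory receptors, phosphatases and adaptors, not restricted to those that act with CD5, gave 8 higher and 3 lower of 24 tested in small Pre-B cells. This was again beside 7.34% and 7.03% of all genes, with a median log2 fold change of 0.13 beside 0.00. Pirb, an inhibitory receptor for MHC class I, rose from 565 ± 41.2 to 1034 ± 87.5 (log2 fold change 0.87, limma adjusted p = 0.000885) and Btla, a receptor for HVEM, from 1142 ± 61.7 to 1689.6 ± 84.8. Cd72, a lectin of B cells that recruits SHP-1 and has been described as a partner of CD5, fell from 61598 ± 1195 to 41654 ± 1809 (-0.57, adjusted p = 0.000315), and the inositol phosphatase gene Inppl1 (SHIP2) from 575 ± 27.0 to 249.7 ± 12.05. Among 10 partners of CD5, CD6 and CD69 tested, with 2 higher, 1 lower and a median of 0.01 beside 0.00, Cd72 was the 1 that fell, and Slc7a5, the amino acid transporter chain that associates with CD69, rose from 465 ± 42.2 to 834 ± 43.1 (0.84, adjusted p = 0.00135), as did Myl12a by 0.32.

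The receptor signal chain gave 7 higher and 1 lower of 35 tested, against the same 7.34% and 7.03% of all genes, and its median was 0.097 beside 0.00. Cd79b, a signalling chain of both the pre-B and the B cell receptor, rose by 0.43 on the log2 scale (104342 ± 2399 to 140364 ± 6389), the kinase gene Blk by 0.47 and the adaptor gene Bank1 by 0.89 (limma adjusted p = 0.00186, 0.00174 and 0.000661). Of 14 genes of B-1a cells tested, 4 rose and 0 fell, with a median of -0.01 beside 0.00 over all genes. These were Arid3a, a transcription factor of fetal B lymphopoiesis (2777 ± 149 to 4840.3 ± 769.6), Plac8 (2878 ± 370.4 to 4827 ± 538), Il5ra, the IL-5 receptor chain of B-1 cells (107 ± 31.7 to 220.4 ± 13.2) and Bhlhe41, a factor needed by B-1a cells (272 ± 39.0 to 451 ± 115, adjusted p = 0.0450). Bhlhe41 was lost without the filter, after rescaling and in each fit that left out 1 library other than tet-LIN28B replicate 3 (limma adjusted p = 0.0511 to 0.147). Arid3a was also the only list gene called in large Pre-B cells, at 623 ± 218 (SD, n = 3) and 2605 ± 1039 (SD, n = 4) normalized counts (log2 fold change 2.03 ± 0.34 SE, adjusted p = 0.0498), a call lost with edgeR (0.148), after rescaling (0.0866), with a pseudocount of 0.5 (0.0557) and without tet-LIN28B replicate 1, 2 or 4 or control replicate 2 or 3 (0.0808 to 0.253). In the same libraries the mature B cell sums given above moved with genotype in small Pre-B cells, and their part in these list counts was not tested.

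**Figure D5:**
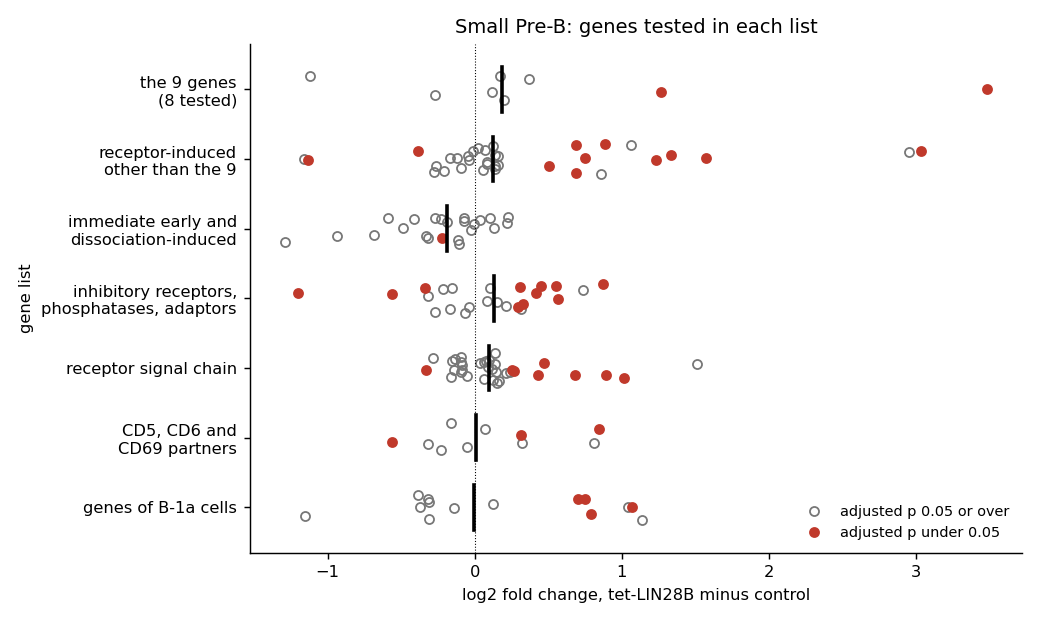
Log2 fold change of tet-LIN28B over control in small Pre-B cells (horizontal axis) for each gene tested of the 9 followed here and of 6 gene lists, 1 point a gene, with filled red points for an adjusted p under 0.05, open points for the rest and a black bar at each median. Cd5 at 3.48 lies farthest to the right, followed by Myc at 3.03, and the immediate early list lies mostly to the left of 0.

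Genes whose pattern was most like that of Cd5, Egr1 and Nr4a1 were named from 9532 genes with a mean of at least 50 normalized counts in every stage, by Pearson's r over the 22 libraries. The values are a description, since libraries of 1 mouse and 1 stage share their source. After each stage's mean was subtracted, so that the genotype difference stayed in, those nearest to Cd5 were Ifi47 (0.87), Stat4 (0.85), H2-Aa (0.85), Tnfrsf13c (0.85) and Relt (0.84). With the mean of each of the 6 groups subtracted, Stat4 remained (0.84), beside BC064078 (0.85), Lcmt2, Ap3m2 and Tpra1 (0.82 each). Egr1 was nearest to Sirt4 under both (0.77 by stage and 0.73 by group), and by stage then to Junb (0.72) and Zfp36l1 (0.71), both early response genes, while the next by group were Fmc1, Dph3, Znhit1 and Snapc5 (0.70 to 0.73). Nr4a1 was nearest to Ergic3 under both (0.90), with Ing1 and Chmp6 also in both sets. Between the 9 genes themselves, r with the group means subtracted ran from -0.70 for Cd5 and Egr1 to 0.58 for Egr2 and Egr3. It was 0.55 for Cd69 and Egr1, -0.08 for Cd5 and Egr3 and 0.32 for Cd5 and Nr4a1. Single libraries can weigh on all r values given here, and their part was not tested. Cd5 was at 0 and Egr1 at 532 in large Pro-B control replicate 4. In large Pre-B tet-LIN28B replicate 3 they were at 10.4 and 220.1. Egr3 did not pass 1.42 normalized counts in any library of the large stages.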

How the data were processed

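Poly-A RNA was measured in B cell precursors of tet-LIN28B and control mice. Per the labels, bone marrow was depleted of CD3+, TER119+ and GR1+ cells and SMART-Seq v4 with Nextera XT served for the libraries. The study sorted CD93+ IgM- B lineage cells by cKIT and by forward scatter. Per the submitters' processing notes, the tools were STAR 2.7.1 (mm10), RSEM 1.28 and DESeq2. The annotation used for counting and the sequencer of each library are not given in the sources used here, so a sequencer batch was not checked. The deposited signal is a normalized count per gene, for which the authors scaled each library's counts by its own size factor, with a separate table for every stage. Also deposited were a base mean, log2 fold change, standard error, Wald statistic, p-value and adjusted p per gene and stage, which were not used. Symbols altered by R's naming rules were restored for 3123 (large Pro-B), 3204 (large Pre-B) and 1944 genes (small Pre-B), and 398, 398 and 238 were kept as deposited.

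Genotypes were compared within a stage with limma 3.58.1 (R 4.3.3, empirical Bayes with a mean-variance trend) on log2(normalized count + 1). A gene was tested if it reached 10 normalized counts in no fewer libraries than the smaller group has. For low genes the limma log2 fold change could be smaller or larger than those of edgeR and DESeq2. It was smaller for Cd5 in small Pre-B cells (3.48 against 3.63 and 3.69). It was larger for Cd5 in large Pro-B cells (1.28 against 0.62 and 0.65). Nr4a2 in small Pre-B cells was also farther from 0 with limma (-1.12 against -0.47 and -0.49). Normalized counts came out as whole reads within 0.1 read for 100% of values, and edgeR 4.0.16 and DESeq2 1.42.0 were run on those reads as alternatives. Here edgeR called 0, 0 and 2018 genes and DESeq2 4, 76 and 2674, beside 0, 8 and 2107 with limma. For stage differences the mouse entered as a random effect (correlation 0.278). The limma script was tested on simulated data. Other alternatives were pseudocounts of 0.5 and 5, no filter, rescaling to the same total, a replicate block and leaving out each library, also with the tested genes held fixed, a choice made after seeing the data. Lists of other pathway genes and cell type markers were compiled from general knowledge, and the members and lists were chosen with earlier results of these data known. All 9 members are named, with up to 4 called genes per list and stage with the smallest adjusted p, the defining marker of a cell type, and the 5 genes nearest to Cd5, Egr1 and Nr4a1. Other marker genes named beside them were chosen after their values were seen. Some genes that this rule names are not reported here. Replicates are separate mice per the labels. A gene at 0 in a library may have up to 3 reads by counting error (1.73 to 3.76 normalized counts), and this floor covers only counting error because PCR copies were not marked by molecular identifiers.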

Additional observations from a re-analysis of the deposited data

Results flagged for a closer look

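Among 27 groups of 4 or 5 libraries of the 9 genes, 6 passed Dixon's 95% limit. These held a library whose gap to the nearest other was large against the range of its group. The limit passes about 5% of groups if values are normally distributed. Counts at or near 0 are not so distributed, so the 6 of 27 cannot be set against that 5%. In large Pro-B controls, Nr4a1 was at 89.2 in replicate 1 against 73.6 to 75.4 in the others, and Egr1 (532 against 206 to 239.9) and Nr4a3 (8.05 against 0.769 to 1.13) were high in replicate 4. In large Pro-B tet-LIN28B replicate 5, Egr2 was at 26.3 against 0 to 6.71, and Egr3 was at 1.25, a single read, against 0. Nr4a3 was at 2.13 in large Pre-B tet-LIN28B replicate 4 against 0 in the others. Groups of 3, which include all of the small Pre-B libraries, were not examined in this way.

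Cd6 lay on opposite sides in the large stages. In large Pro-B cells all 5 tet-LIN28B libraries were below the control mean (means 2.25 and 9.80 normalized counts), and in large Pre-B cells all 4 were above it (8.01 and 0.944). Cd6 passed the filter in neither stage, and this difference between the stages was not tested.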

How the results depend on the processing

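In small Pre-B cells 2 of the 9 genes were called in the main analysis, with pseudocounts of 0.5 and 5, and with edgeR and DESeq2. That count was 1 without the filter, after rescaling to the same total and with the replicate block, and 1 to 1 when a library was left out, with Egr3 the gene called without tet-LIN28B replicate 2 and Cd5 the gene called in the other fits. DESeq2 gave no adjusted p for Nr4a2 and Nr4a3 in small Pre-B cells. Over all genes, the replicate block called 1758 in place of 2107 in small Pre-B and 2 in place of 8 in large Pre-B cells. Same-numbered libraries correlated between -0.19 and 0.43 in their deviations from the group means, and differently numbered ones between -0.39 and 0.38. The labels name no litter, and so few libraries cannot decide whether same-numbered ones were paired. In large Pre-B cells 76 genes were called by DESeq2, 15 without the filter, 1 after rescaling, which moved the median of all genes from -0.02 to -0.12, and 0 to 23 with a library left out. In large Pro-B cells DESeq2 called 4, and leaving out a library left 1016 to 1965 called in small Pre-B cells.

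The values that changed sign were all uncalled, and the cause was not tested. With edgeR and DESeq2 the log2 fold change of Cd69 was 0.036 and 0.071 in large Pro-B and 0.22 and 0.24 in large Pre-B cells, and that of Nr4a1 was 0.13 and 0.16 in large Pro-B cells. With a library left out, Cd69 ran from -0.54 to 0.096 in large Pro-B and from -0.92 to 0.12 in large Pre-B cells (0.050 without tet-LIN28B replicate 2), and Nr4a1 from -0.64 to 0.096 in large Pro-B cells. In small Pre-B cells Egr1 ran from -0.027 to 0.24, Egr2 from -0.34 (-0.30 without control replicate 2) to 0.84, Nr4a2 from -1.95 to 0.011, and Nr4a3 from -0.78 to 0.072 (0.030 without tet-LIN28B replicate 2). Holding the tested genes fixed, chosen after seeing the data, gave the same log2 fold changes, and Cd5 in small Pre-B cells was then called in all 6 fits (adjusted p up to 0.0467). Few reads limit Cd5, Cd6, Nr4a2, Nr4a3, Egr2 and Egr3.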
